A study of Mus musculus with 16 samples.

Results

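The effect of morphine withdrawal on gene expression in the medial prefrontal cortex (mPFC) was read from the 7 mice that carried the control virus, out of 16 mice in the series. The comparison set 4 Ctrl + Morphine mice against 3 Ctrl + Saline mice, chosen by their labels, and every fold change is morphine over saline. All 7 were male wild-type C57BL/6 mice of 8 to 10 weeks that had received, on both sides of the mPFC, an adeno-associated virus with a U6-driven scrambled hairpin and an EGFP reporter. The U6 promoter is not restricted to a cell type, so the virus marks no particular cell. Ctrl + Morphine mice had 5 injections of morphine at 10 mg/kg on alternate days of a 10-day conditioned place preference schedule and saline on the other days, while Ctrl + Saline mice had saline only. Tissue was taken on day 17, the seventh day of withdrawal, right after a second place preference test. An earlier test had followed the end of conditioning. The other 9 mice carried a Kdm7a-shRNA virus and enter here as the knockdown side of the last comparison and in the shared estimate of the spread. The table holds 19069 known genes among 26625 entries, and 14162 known genes had enough counts to be tested.

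Morphine acts at the mu opioid receptor, which couples to inhibitory G proteins and lowers cAMP in the cell. Repeated exposure is known for a rebound of cAMP signalling once the drug is withdrawn, and for lasting changes at glutamate synapses and dendritic spines. The mPFC sends excitatory projections to the striatum and amygdala and takes part in drug seeking after withdrawal. Pieces of cortex hold neurons, glia, vessel cells and some blood, and in such tissue fewer cells of a type and less RNA per cell cannot be told apart.

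Each of the 7 mice had between 7081172 and 9768835 assigned Nanopore cDNA reads. The defining genes of cortical excitatory neurons were present throughout: Slc17a7, the vesicular glutamate transporter of cortical neurons, had 266 to 372 normalized CPM in the Ctrl + Saline mice and 422 to 553 in the Ctrl + Morphine mice. CPM are read counts scaled to a common library total, and normalized CPM are those after TMM scaling. The library labelled Ctrl + Saline 1 was closer to some morphine libraries than to its own group. Its counts were closest to those of Ctrl + Morphine 3, with a chi-square per degree of freedom of 6.27 over entries. With each of the other Ctrl + Saline mice it was 21.1. Ctrl + Saline 2 and 3 differed from each other nearly as much, at 18.6, and Ctrl + Saline 3 was also nearer to Ctrl + Morphine 3, at 16.2. All correlations of log2 CPM between the 7 mice lay between 0.947 and 0.978. Leaving out Ctrl + Saline 1 changed the calls most, so results are given with and without this mouse where its part is large.

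No entry passed an adjusted p-value under 0.05 together with a fold change of at least 1.5 by edgeR's quasi-likelihood test, 0% of 18826 tested entries. The lowest adjusted p-value was 0.0959. At an unadjusted p-value under 0.05, 7.63% of all tested entries were higher and 4.08% lower in Ctrl + Morphine mice. Among known genes the shares were 9.48% higher, 1343 genes, and 3.1% lower, 439 genes. All 4 Ctrl + Morphine mice lay above all 3 Ctrl + Saline mice for 8.5% of known genes and below them for 4.85%. The median log2 fold change of known genes was 0.04. These shares are the background against which each gene group below is read.

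Other tests on the same counts crossed the thresholds. By DESeq2's Wald test 157 entries passed on the higher side and 33 on the lower, and by the exact test in edgeR 131 and 31. Both of these tests called 126 known genes, 112 higher and 14 lower. Without Ctrl + Saline 1 the quasi-likelihood test itself called 194 known genes higher, 1.35%, and 15 lower, 0.104%. All 209 of these had the same direction with all 7 mice. The fits share every mouse except Ctrl + Saline 1, so this gives no independent support. Leaving out any other Ctrl mouse gave no entry past the thresholds.

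Fold change moved with the base composition of the transcript. The guanine and cytosine (GC) content was taken from the longest protein-coding transcript of each gene in GENCODE vM21, and 14103 tested known genes had one. In the quintile of genes with the lowest GC content, with a median of 41.4%, the median log2 fold change was -0.07, and 3.79% of genes were higher and 6.24% lower at an unadjusted p-value under 0.05. In the quintile with the highest GC content, with a median of 58.2%, the median was 0.23, and 20.8% were higher and 0.674% lower. The 3 quintiles between them had medians of -0.02, 0.01 and 0.07, in order of GC content. Spearman's correlation between fold change and GC content was 0.31 over these genes, which share the same 7 libraries, and that with transcript length was -0.04. Within each of 3 length classes the high-GC quintile again had the highest median, between 0.21 and 0.25.

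**Figure D1:**
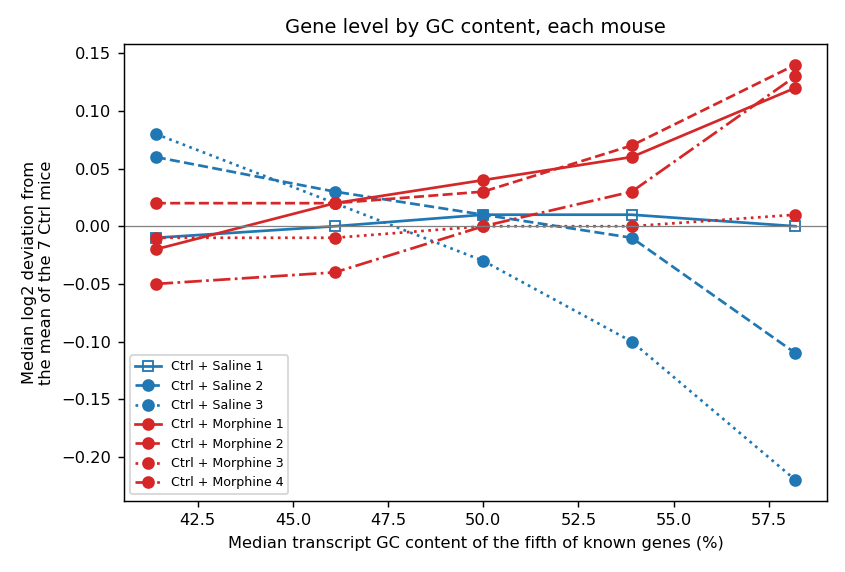
Median log2 deviation of known genes from the mean of the 7 Ctrl mice (vertical axis) in each quintile of transcript GC content (horizontal axis, the median GC content of the quintile in percent), with 1 line per mouse, Ctrl + Saline in blue and Ctrl + Morphine in red. In the quintile of highest GC content, Ctrl + Saline 2 and 3 lie at -0.11 and -0.22, while Ctrl + Saline 1 at 0.00 and Ctrl + Morphine 3 at 0.01 lie together below the other Ctrl + Morphine mice at 0.12 to 0.14.

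The GC trend was carried by part of the mice in each group. For the high-GC quintile the median deviation was -0.11 in Ctrl + Saline 2 and -0.22 in Ctrl + Saline 3, but 0.00 in Ctrl + Saline 1. Among Ctrl + Morphine mice it was 0.12, 0.14 and 0.13 in replicates 1, 2 and 4 and 0.01 in replicate 3. A fit that removed the GC trend of each mouse left 5.95% of known genes higher and 4.96% lower at an unadjusted p-value under 0.05, 843 and 703 genes, and again passed no entry. Thus the share of higher genes among those called went from 75.4% to 54.5%, while 795 of the 1343 higher genes and 380 of the 439 lower genes were called in both fits. What produced the GC trend was not tested. For the gene groups below, counts with the GC correction are read against the 5.95% higher and 4.96% lower.

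To show the difference in composition, the middle 30 codons of the coding sequence are given for 4 of the genes with the smallest p-values, chosen after their values were seen for their GC content. G and C are in capitals, and all sequences are 5′ to 3′ from GENCODE vM21 on GRCm38. Fkbp8, which encodes a prolyl isomerase that holds Bcl-2 proteins at mitochondria, lies on the plus strand at chr8:70527724-70535328, and the stretch shown is in exon 5 at chr8:70531559-70531648. Tmem70, an assembly factor of the mitochondrial ATP synthase, lies on the plus strand at chr1:16665207-16678275, with the stretch in exon 3 at chr1:16676997-16677086. Chordc1, a co-chaperone of Hsp90, lies on the plus strand at chr9:18292125-18317442, and its stretch joins the end of exon 6 to the start of exon 7. Stag2, a subunit of the cohesin ring, lies on the plus strand at chrX:42149317-42277185, with the stretch in exon 19 at chrX:42247886-42247975.
Fkbp8: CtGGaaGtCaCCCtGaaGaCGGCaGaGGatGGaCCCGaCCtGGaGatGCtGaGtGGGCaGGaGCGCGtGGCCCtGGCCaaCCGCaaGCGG
Tmem70: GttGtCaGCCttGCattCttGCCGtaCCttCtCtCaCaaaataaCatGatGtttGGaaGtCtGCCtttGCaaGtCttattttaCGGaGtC
Chordc1: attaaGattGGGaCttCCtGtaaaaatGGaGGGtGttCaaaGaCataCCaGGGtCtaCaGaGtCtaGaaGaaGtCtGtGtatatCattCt
Stag2: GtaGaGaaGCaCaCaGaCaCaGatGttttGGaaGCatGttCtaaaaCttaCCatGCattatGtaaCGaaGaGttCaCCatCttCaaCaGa
The transcripts of Fkbp8, Tmem70, Chordc1 and Stag2 had a GC content of 63.0%, 44.2%, 35.7% and 38.1%. Fkbp8 and Tmem70 were on the higher side in Ctrl + Morphine mice and Chordc1 and Stag2 on the lower side. Tmem70 went against the trend, with a log2 fold change of 1.27 that was 1.28 after the GC correction, whereas that of Fkbp8 was 0.93 and became 0.56.

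The 15 higher genes with the smallest p-values, among known genes with a fold change of at least 1.5, had log2 fold changes between 0.68 and 1.36 and adjusted p-values between 0.0959 and 0.109. None passed, and their median GC content was 58.2% against 50% for tested known genes. Poldip2, a mitochondrial and nuclear partner of DNA polymerase delta at chr11:78512193-78522736, had 79.3, 59.3 and 50.1 normalized CPM in the Ctrl + Saline mice and 119, 115, 108 and 110 in the Ctrl + Morphine mice. Its groups did not overlap, and its mean went from 62.9 ± 14.9 (SD, n = 3) to 113 ± 4.78 (SD, n = 4), a log2 fold change of 0.84 ± 0.138 (SE) with an adjusted p of 0.0959.
Tmem70 had 28, 19.4 and 23.7 normalized CPM with saline and 62.5, 46.2, 46.7 and 72.4 with morphine. Ctrl + Morphine 1 and 4 were the highest, and the groups were apart, at 23.7 ± 4.30 (SD, n = 3) and 57.0 ± 12.8 (SD, n = 4) with an adjusted p of 0.0959 by edgeR.
Grina, an NMDA receptor-associated membrane protein of the Golgi and endoplasmic reticulum, had 227, 165 and 171 with saline and 301, 306, 272 and 325 with morphine. Pdgfa, the A chain of platelet-derived growth factor, had 19.8, 13.3 and 14.4 with saline and 31.6, 35.4, 31.6 and 27.8 with morphine, a log2 fold change of 1.00. For both genes Ctrl + Saline 1 was the highest saline mouse and still below every morphine mouse, and the adjusted p was 0.0959.
Fkbp8 had 186, 146 and 128 with saline and 309, 310, 239 and 310 with morphine. The lowest morphine mouse was replicate 3, and the adjusted p was 0.103.

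**Figure D2:**
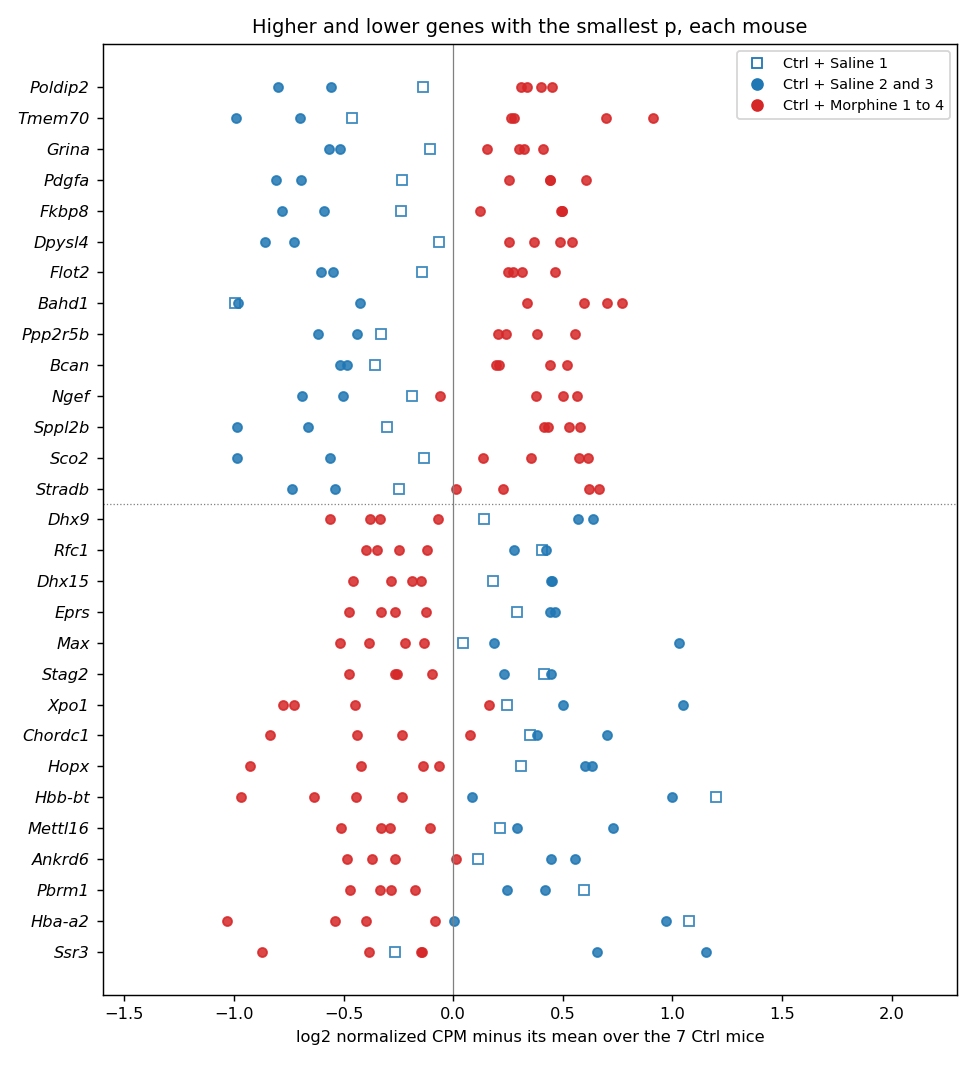
Log2 normalized CPM of the genes with the smallest p-values in each of the 7 Ctrl mice, minus the mean of the gene over these mice (horizontal axis), with 14 of the higher genes above the dotted line and the 15 lower genes below it. Ctrl + Saline 1, drawn as an open square, was the saline mouse nearest to the morphine mice for most of the higher genes, and the groups of the 14 higher genes drawn and of 14 of the 15 lower genes do not overlap; Ssr3 is the exception.

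The rest of the higher genes included several with roles at the membrane and in growth cones. Dpysl4, a collapsin response mediator of growing axons, had 27.6, 17.4 and 15.9 normalized CPM with saline and 40.4, 37.2, 34.4 and 41.9 with morphine. Ngef, an exchange factor that links ephrin receptors to small GTPases, had a log2 fold change of 0.81, and Flot2, a membrane raft scaffold, of 0.74. Bcan, a proteoglycan of the brain matrix, had log2 fold changes of 0.80 and 0.49 before and after the GC correction. Further members were Bahd1, Ppp2r5b, Sppl2b, Sco2 and Stradb, with log2 fold changes between 0.81 and 1.36. All 15 stayed at an unadjusted p-value under 0.05 with the GC correction, with log2 fold changes of 0.44 to 1.28, and without Ctrl + Saline 1, 14 of the 15 passed, Bahd1 being the exception.

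On the lower side the 15 genes had log2 fold changes between -0.63 and -1.38, adjusted p-values between 0.103 and 0.162, and a median GC content of 44.6%. Dhx9, an RNA and DNA helicase at chr1:153455758-153487660, had 75.2, 106 and 101 normalized CPM with saline and 52.3, 65.0, 54.0 and 46.1 with morphine. Its mean was 94.1 ± 16.6 (SD, n = 3) with saline and 54.4 ± 7.86 (SD, n = 4) with morphine, an adjusted p of 0.103 by edgeR.
Rfc1, the large subunit of the clamp loader of DNA replication at chr5:65261850-65335670, had 64.5, 59.1 and 65.4 with saline and 38.3, 41.1, 37.0 and 44.9 with morphine. Its log2 fold change was -0.64 and hardly moved without Ctrl + Saline 1, at -0.66, or with the GC correction, at -0.65.
Dhx15, a helicase that takes the spliceosome apart, had 34.8, 41.8 and 42.0 with saline and 22.4, 27.7, 27.0 and 25.2 with morphine. Xpo1, the main nuclear export receptor, had 32.5, 56.8 and 38.8 with saline and 16.6, 20.1, 30.7 and 16 with morphine. In both the groups were apart, and the log2 fold changes were -0.63 and -1.04.
Eprs, a tRNA synthetase, had -0.70, Max, the dimer partner of Myc, -0.80, and Pbrm1, a subunit of a chromatin remodelling complex, -0.74. Hbb-bt and Hba-a2 are globin genes and are described with the blood cell markers. Without Ctrl + Saline 1, 9 of these 15 genes passed.

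Some genes named by the paper or by earlier results of these data were followed here by name. Kdm7a, a demethylase of histone H3, had 9.78, 9.08 and 9.41 normalized CPM with saline and 7.79, 6.19, 8.89 and 8.02 with morphine. Every Ctrl + Morphine mouse was below every Ctrl + Saline mouse, with a log2 fold change of -0.29 ± 0.212 (SE) and an adjusted p of 0.643. Its transcript GC content was 39.6%, in the quintile where 8.26% of genes lay below in all morphine mice, and the GC correction gave -0.21. In separate experiments at the same stage of withdrawal, the paper reports higher Kdm7a mRNA by qRT-PCR and higher KDM7A protein by Western blot in the mPFC. Fscn1, an actin bundler, had 53.5, 33.8 and 37.1 with saline and 90.2, 67.5, 55.6 and 98.5 with morphine. The groups were apart by a small margin, and the adjusted p was 0.136, or 0.0239 without Ctrl + Saline 1. Its transcript had a GC content of 60.6%, and its log2 fold change of 0.91 became 0.62 with the GC correction, with an adjusted p of 0.246. By qRT-PCR at the same stage of withdrawal the paper reports higher Fscn1 mRNA after morphine.
Nudt19, a coenzyme A hydrolase, had a log2 fold change of 1.01 and an adjusted p of 0.138. Cck, the peptide cholecystokinin, had 376, 192 and 149 with saline and 462, 512, 470 and 555 with morphine, with an adjusted p of 0.166. Grin2a, an NMDA receptor subunit, overlapped between the groups at -0.14, and Gapdh at -0.17 with an adjusted p of 0.620.

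A set of genes had low values in Ctrl + Saline 2 and 3 alone. In 46 of 10818 known genes with over 5 normalized CPM in some Ctrl mouse, both of these mice were below the other 5 Ctrl mice by a factor of more than 2. The genes were chosen for this pattern after the values were seen, so no test was made. The mean of the other 5 mice was 2.22 to 49.1 times that of Ctrl + Saline 2 and 3, with a median of 3.74, and in 43 of the 46 genes all 9 Kdm7a-shRNA mice were also above both.
Rpl13, a protein of the large ribosomal subunit, had 668, 46.9 and 164 normalized CPM with saline and 605 to 748 with morphine. Rps2, of the small subunit, had 868, 181 and 160 with saline and 840 to 1094 with morphine. For both genes Ctrl + Saline 1 was within the range of the morphine mice, and they are the 2 ribosomal protein genes among the 46.
Clta, a clathrin light chain, had 534, 125 and 109 with saline and 486 to 529 with morphine. Slc25a3, the mitochondrial phosphate carrier, had 862, 327 and 371 with saline and 787 to 927 with morphine. Emc6, a subunit of the membrane insertion complex of the endoplasmic reticulum, had 20.6, 3.61 and 4.77 with saline and 22.7 to 26.0 with morphine.
These genes were short, with a median transcript length of 1348 bases against 3205 for tested known genes. Of the 46, 41 were among the 209 called without Ctrl + Saline 1. The choice of these genes favours this overlap, since that fit sets Ctrl + Saline 2 and 3 against the morphine mice. For such genes the morphine difference was a difference from 2 of the 3 saline mice. Many ribosomal protein genes have near-identical processed copies in the genome, so reads could be shared between them.

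**Figure D3:**
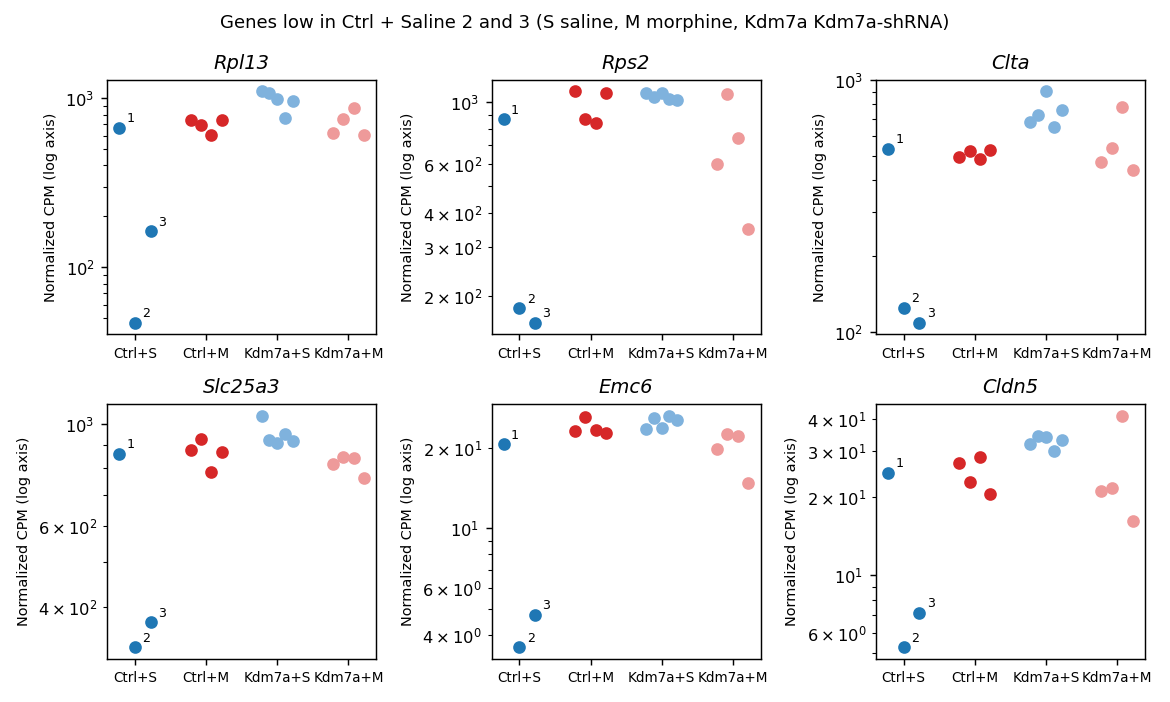
Normalized CPM (vertical log axis) of 6 genes in all 16 mice by group, with the Ctrl + Saline mice numbered. In each panel Ctrl + Saline 2 and 3 lie below every other mouse, and Ctrl + Saline 1 lies among the rest, as for Rps2 at 868 against 181 and 160.

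At glutamate synapses, where the scaffold genes had a high median GC content of 55.0%, the counts are again read against 9.48% higher and 3.1% lower among known genes. Among 35 postsynaptic density scaffold genes 8 were higher and none lower at an unadjusted p-value under 0.05, with a median log2 fold change of 0.14, or 0.01 after the GC correction, when 4 were higher and 1 lower. Without Ctrl + Saline 1 the list had 4 higher and 2 lower genes. Camk2g, a subunit of the calcium/calmodulin kinase of spines, had 151, 152 and 143 normalized CPM with saline and 205, 236, 192 and 186 with morphine. The groups were apart, with a log2 fold change of 0.46, an adjusted p of 0.136 and 0.40 after the GC correction.
Homer3, an adaptor of group I metabotropic receptors, had 5.68, 4.98 and 4.37 with saline and 10.6, 5.98, 12.1 and 10.1 with morphine, and Ppp1r9b, the spine protein spinophilin, had a log2 fold change of 0.78. Shank1, a master scaffold of the density, overlapped at 0.39 and was 0.05 after the GC correction.
Of 26 ionotropic glutamate receptor genes 3 were higher and none lower, with a median of 0.04, and 2 were higher with the GC correction. Grin1, the subunit present in every NMDA receptor, had 138, 95.8 and 93.1 with saline and 197, 262, 148 and 190 with morphine. Its lowest morphine mouse was replicate 3, and the adjusted p was 0.147. Grik4, a kainate receptor subunit, had a log2 fold change of 1.28 at 1.27 to 2.91 normalized CPM with saline, and Cnih2, an AMPA receptor auxiliary protein, 0.56. These fold changes were 1.22 and 0.21 with the GC correction. None of 7 metabotropic glutamate receptor genes was called.

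Genes of vesicle release had 14 higher and 2 lower of 62, with a median of 0.13. Bin1, a membrane-bending protein of endocytosis, had 116, 79.7 and 93.3 normalized CPM with saline and 182, 174, 122 and 166 with morphine, with an adjusted p of 0.139. Slc17a7 had 372, 266 and 301 with saline and 422, 553, 422 and 475 with morphine. Both were apart between the groups. Ppfia3, an active zone scaffold, and Syt3, a calcium sensor, had log2 fold changes of 0.72 and 0.65 with overlapping groups. With the GC correction the counts for the list were 5 higher and 2 lower.
The median deviation of this list was 0.31 in Ctrl + Morphine 2 and between -0.18 and 0.02 in the other 6 mice. Likewise for the postsynaptic list it was 0.35 in Ctrl + Morphine 2, so that the highest mouse was the same in both.
Among 47 synaptic adhesion genes 8 were higher and none lower, with a median of 0.11. Icam5, an adhesion molecule of dendrites in the forebrain, had 13.2, 11.2 and 11.1 with saline and 18.6, 24.1, 18.6 and 29.8 with morphine. Ptprs, a receptor phosphatase that organizes presynaptic sites, had a log2 fold change of 0.55 and Nlgn2, the neuroligin of inhibitory synapses, 0.41. With the GC correction these were 0.26 and 0.10. After the GC correction 2 of the 47 were higher and 2 lower.

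For inhibitory transmission, 1 of 14 GABA receptor genes was higher, Gabrg3 at 0.73, and 1 lower, Gabra2 at -0.49, with overlapping groups in both. Among potassium channels 5 of 55 were higher and none lower, with a median of 0.14, and 1 was higher with the GC correction. Kcnn2, a small-conductance calcium-activated channel, had 17.8, 18.5 and 19.9 normalized CPM with saline and 23.7, 40.4, 33.8 and 23.5 with morphine. Its groups were apart and the adjusted p was 0.165. Sodium, calcium and HCN channel genes had 3 of 27 higher, all calcium channels: Cacna1b, Cacna1g and Cacna1h, at 0.49, 0.52 and 0.84. With the GC correction none of the 27 was higher and 1 was lower.

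Opioid genes themselves showed no separation. Of 8 listed genes 7 were tested, none at an unadjusted p-value under 0.05, and the groups overlapped for each. Oprm1, the mu receptor, had only 1.06, 2.24 and 3.18 normalized CPM with saline and 2.80, 4.48, 2.43 and 2.25 with morphine. Penk, the enkephalin precursor, had 28.8, 17.7 and 22.1 with saline and 36.0, 21.2, 23.6 and 17.2 with morphine. These values were added to show the receptor of the drug and were chosen after they were seen.
Monoamine and acetylcholine receptor genes had 4 of 24 higher and none lower, with a median of 0.21, or 0.17 with the GC correction, when 1 was higher. With the replicate block 2 were higher. Chrm4, a muscarinic receptor, had 5.02, 5.56 and 3.84 with saline and 8.29, 7.36, 6.70 and 7.81 with morphine. Chrna5, Htr3a and Adra2a, receptors for acetylcholine, serotonin and noradrenaline, had log2 fold changes of 0.91, 0.66 and 0.85 with adjusted p-values of 0.369 to 0.400.
Of 23 cortical neuropeptide genes 2 were higher and none lower, Cck and Chga, and the median was 0.01, while 3 were lower with the replicate block.

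In the signalling groups below the receptors the counts are to be read against the 9.48% of known genes that were higher and the 3.1% that were lower. Of 51 cAMP signalling genes 8 were higher and 1 lower, with a median of 0.17, or 0.08 with the GC correction. Ppp1r1b, the dopamine- and cAMP-regulated phosphoprotein DARPP-32, had 64.5, 46.1 and 43.4 normalized CPM with saline and 106, 101, 84.2 and 119 with morphine. Its groups were apart, with an adjusted p of 0.155. Ppp1r1a, a related inhibitor of protein phosphatase 1, had 27.9, 10.5 and 11 with saline and 32.9, 35.7, 29.2 and 41.9 with morphine. It is among the 46 genes with low values in Ctrl + Saline 2 and 3. Pde1b, a phosphodiesterase, and Adcy2, an adenylyl cyclase, were at 0.54 and 0.42.
The striatal marker list had 1 of 17 genes higher, Ppp1r1b itself, and a median of 0.08. Its summed level was 237 to 257 CPM with saline and 295 to 351 with morphine. Ppp1r1b is part of that sum, so the sum is not a separate measure of striatal tissue. The part of striatal tissue in the Ppp1r1b difference was not tested.
Genes of G proteins and their regulators had 4 of 48 higher and 3 lower, or 2 and 2 with the GC correction and 4 and 1 with the replicate block. Gnb2, a beta subunit, overlapped at 0.65, and Gng13, a gamma subunit, had 55.6, 14.2 and 24.6 with saline and 60.5 to 86.2 with morphine, which placed Ctrl + Saline 1 just below the morphine mice.
The MAP kinase cascade had 12 of 66 higher and 2 lower, with a median of 0.09. Rps6ka4, a kinase of histone H3 and CREB, had 7.93, 4.10 and 3.18 with saline and 11.4, 13.4, 8.76 and 13.8 with morphine, an adjusted p of 0.138. Map2k1 and Map2k2, kinases of the ERK branch, had log2 fold changes of 0.61 and 0.68 and overlapping groups. With the GC correction the counts were 8 higher and 2 lower.

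Immediate early genes, which neurons switch on within minutes of activity, went in both directions. Of 32 tested 4 were higher and 2 lower, with a median of 0.26. With the GC correction 1 was higher and 3 lower, with a median of 0.09, and with the replicate block 5 were higher and 4 lower. Fos, a subunit of the AP-1 factor, had 54.8, 45.3 and 50.9 normalized CPM with saline and 33.8, 37.3, 21.9 and 24.9 with morphine. Every morphine mouse was below every saline mouse, at a log2 fold change of -0.77 and an adjusted p of 0.320. Btg2, an antiproliferative gene of the early response, had 9.25, 10.4 and 6.76 with saline and 6.59, 4.80, 4.99 and 3.64 with morphine. Ier5 was on the other side, at 9.78, 5.56 and 6.89 with saline and 11.5, 16, 12.8 and 13.7 with morphine, and Per1 overlapped at 0.56. The tissue was dissected right after a place preference test, and the part of that test in these levels was not tested.
The list of neurotrophins and their receptors, which also holds other growth factor genes, had 2 of 30 higher. These were Vegfb, a vascular endothelial growth factor, at 0.59 and Fgfr3, a fibroblast growth factor receptor, at 0.41. Neither belongs to the neurotrophin family.
Circadian clock genes had 4 of 24 higher and none lower, with a median of 0.11, or 0.10 with the GC correction, when 2 were higher. Dbp, an output factor of the clock, had 18.1, 13.1 and 12.6 with saline and 32.9, 33.9, 22 and 24.5 with morphine, an adjusted p of 0.109. Nr1d1, the repressor Rev-erb alpha, had a log2 fold change of 0.56 and Ciart 0.61, with groups apart for both genes. Time of day of dissection is not given by the labels. Glucocorticoid-responsive genes had 2 of 31 higher, Per1 and Sult1a1, and none lower, or 4 higher with the replicate block.

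Axon guidance and the actin cytoskeleton held the growth-cone genes. Axon guidance had 9 of 71 higher and 3 lower, with a median of 0.09, or 0.00 with the GC correction, when 4 were higher and 3 lower. Slit1, a repellent ligand, had 5.02, 3.42 and 5.83 normalized CPM with saline and 9.29, 10.5, 8.89 and 9.95 with morphine, and Unc5a, a netrin receptor, had 15.1, 10.1 and 10.5 with saline and 24.5, 22.5, 17.3 and 19.8 with morphine. In both the groups were apart, with adjusted p-values of 0.208 and 0.166. Ntn3, a netrin, was below 3 normalized CPM in every mouse.
Among 65 actin genes 12 were higher and 3 lower, with a median of 0.10, or 0.03 with the GC correction, when 8 were higher and 4 lower. Dbn1, the spine protein drebrin, had 73.7, 34.4 and 39.7 with saline and 77, 84.9, 71.2 and 97.7 with morphine, which overlapped through Ctrl + Saline 1. Without that mouse its log2 fold change was 1.12 with an adjusted p of 0.0120. Rac1 and Arpc4, of actin branching, were at 0.46 and 0.36. Genes of the perineuronal net and brain matrix had 5 of 44 higher, led by Bcan, and 1 lower, Sparcl1 at -0.27.
Cortical layer and projection neuron genes had 3 of 42 higher and none lower. Fezf2, the selector of deep-layer output neurons, had 25.0, 19.1 and 17 with saline and 32.2, 37.1, 31.2 and 38.3 with morphine, an adjusted p of 0.309, and Rprm and Neurod2 had log2 fold changes of 0.66 and 0.84.

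Among chromatin genes, 1 of 21 histone demethylases was higher, Kdm4b at 0.63, and none lower. Histone methyltransferases and deacetylases had 5 of 53 higher and 3 lower, with counts of 3 and 5 after the GC correction and 6 and 7 without Ctrl + Saline 1. Sirt7, a nucleolar sirtuin, had 24.3, 14.1 and 17.9 normalized CPM with saline and 36.8, 33.3, 43.1 and 36.2 with morphine. Hdac11 had 61.7, 53.2 and 49.8 with saline and 86.6, 96.1, 69.3 and 79.6 with morphine. The groups were apart in both, at an adjusted p of 0.138. Kmt5c and Ehmt2, which methylate histones H4 and H3, had log2 fold changes of 1.23 and 0.51, the latter 0.20 with the GC correction.

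**Figure D4:**
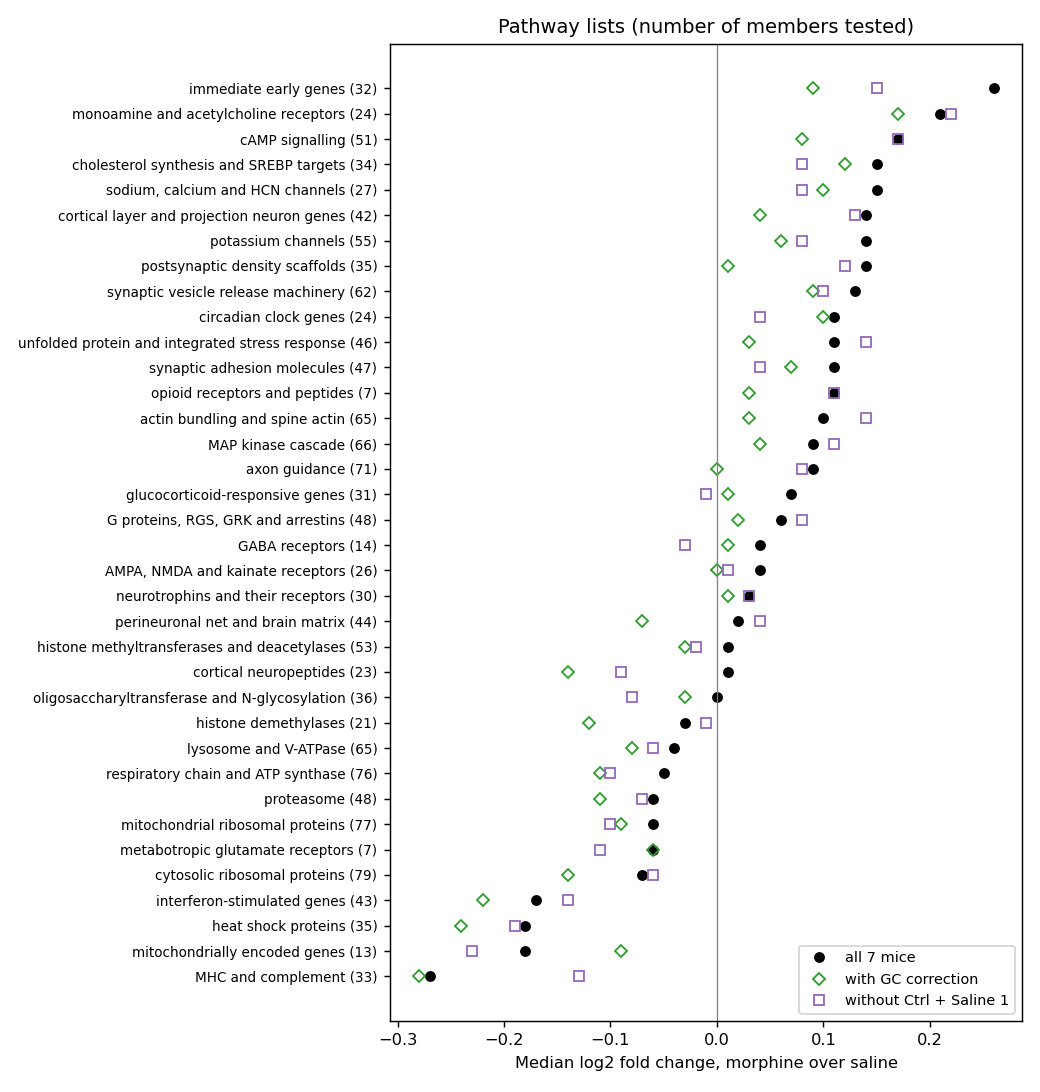
Median log2 fold change of the tested members of each of 36 pathway lists (horizontal axis), with the number tested in brackets, in all 7 mice, with the GC correction, and without Ctrl + Saline 1. Medians run from -0.27 to 0.26 in all 7 mice, and that of postsynaptic density scaffolds goes from 0.14 to 0.01 with the GC correction.

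Chaperones stood on the lower side. Of 35 heat shock genes 7 were lower and 2 higher, against 3.1% of known genes lower, and 9 lay below in all morphine mice, against 4.85% of known genes. The median was -0.18, and -0.24 with the GC correction, when 11 were lower, against 4.96% of known genes. Hsp90ab1, the constitutive cytosolic Hsp90, had 591, 666 and 660 normalized CPM with saline and 483, 523, 512 and 489 with morphine. The groups were apart at a log2 fold change of -0.35 and an adjusted p of 0.208. Dnaja1, a J-domain partner of Hsp70, had 361, 426 and 510 with saline and 280, 365, 343 and 273 with morphine.
Hspa1b, an inducible Hsp70, had 2.64, 1.07 and 2.52 with saline and 0.899, 0.320, 0.243 and 0.428 with morphine. It has a near-identical neighbour, Hspa1a, with which reads could be exchanged. Dnaja2 was on the higher side, at 0.51.
In the endoplasmic reticulum stress list 10 of 46 genes were higher and 2 lower, against 9.48% and 3.1% of known genes. With the GC correction 8 were higher and 3 lower, against 5.95% and 4.96%. Hspa5, the main chaperone of that compartment, had 133, 197 and 221 with saline and 122, 124, 132 and 125 with morphine, so that Ctrl + Saline 1 lay next to the morphine mice. Creld2, a disulfide isomerase, had 9.52, 6.15 and 7.29 with saline and 13.8, 12, 11.7 and 15.9 with morphine. Pdia3 and Slc3a2 had log2 fold changes of 0.80 and 0.57.
N-glycosylation genes had 6 of 36 higher and none lower, with a median of 0.00, and 3 higher and 2 lower with the GC correction. Tusc3, a subunit of the oligosaccharyltransferase, had 337, 217 and 227 with saline and 416, 421, 376 and 441 with morphine, and Ddost, another subunit, 19.6, 16.6 and 17.1 with saline and 40.2, 23.8, 24.2 and 41.1 with morphine. Both were apart with an adjusted p of 0.172, and Ctrl + Morphine 1 and 4 were the highest for Ddost.

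Genes of protein synthesis and energy had medians just below 0 with single members far above. Over all known genes 9.48% were higher and 3.1% lower, or 5.95% and 4.96% with the GC correction. All morphine mice lay above all saline mice for 8.5% of known genes and below them for 4.85%. In the quintile of highest expression 8.12% lay below, and 9.5% were lower with the GC correction. Of 79 cytosolic ribosomal protein genes 2 were higher, Rpl13 and Rps2, and 1 lower, Rpl14 at -0.23, with a median of -0.07. Further, 12 of the 79 lay below in all morphine mice, and with the GC correction 2 were higher and 16 lower. Mitochondrial ribosomal protein genes had 13 of 77 higher and 5 lower, and their median was -0.06, while 10 were higher and 12 lower with the GC correction. Mrps26 had 23.9, 18.7 and 17.6 normalized CPM with saline and 32.5, 37.0, 27.5 and 46.8 with morphine.
Of 76 respiratory chain and ATP synthase genes 4 were higher and 1 lower, with a median of -0.05, and 10 lay below in all morphine mice against 4 above. With the GC correction 4 were higher and 13 lower, and without Ctrl + Saline 1, 8 were higher and 4 lower. Cox5a, a subunit of cytochrome oxidase, had 64.0, 37.5 and 29.7 with saline and 173, 88.7, 85.5 and 188 with morphine, a log2 fold change of 1.62 and an adjusted p of 0.139. Ctrl + Morphine 1 and 4 were again the highest, as they were for Uqcrfs1 of complex III at 55.0 and 83.3 against 29.9 and 22.8. Cyc1 had 202, 122 and 101 with saline and 274, 219, 231 and 284 with morphine.
The 13 genes encoded by mitochondrial DNA had a median of -0.18 and 2 lower members, mt-Nd4 and mt-Nd4l, with overlapping groups. Ctrl + Morphine 1 and 4 had median deviations of -0.33 and -0.31 for them, and Ctrl + Morphine 2 and 3 of 0.21 and 0.09.
The proteasome had 2 of 48 higher and 2 lower. Psme3, an activator cap, had 33.0, 29.0 and 26.4 with saline and 44.6, 45.7, 41.9 and 44.0 with morphine, an adjusted p of 0.105. Cholesterol synthesis had 6 of 34 higher and none lower, among them Sqle at 0.70 and Scap, the escort of SREBP, at 0.56, and 3 were higher with the GC correction. Lysosome and V-ATPase genes had 3 of 65 higher, including Gaa at 0.37 and 0.11 with the GC correction.

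Immune genes and markers of other cells varied by mouse. Neither the 43 interferon-stimulated genes nor the 33 MHC and complement genes had a member at an unadjusted p-value under 0.05, and their medians were -0.17 and -0.27. Ctrl + Morphine 2 alone had median deviations of -1.24 and -1.14 for these lists, while the other 6 mice lay between -0.14 and 0.52. For the 24 microglia markers, of which 1 was lower and none higher, the summed level was 3003 to 4238 CPM with saline, and 1487 in Ctrl + Morphine 2 against 2932 to 3408 in the other morphine mice. Gpr34, the lower member, had 9.65, 13.9 and 20.1 normalized CPM with saline and 6.95 to 8.03 with morphine.

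Blood cell markers had the median furthest from 0 of the 47 lists. Of 14 listed genes 12 were tested, and 6 were lower and none higher, with a median of -1.22, -1.06 without Ctrl + Saline 1 and -1.33 with the GC correction. Hbb-bt, a beta globin, had 238, 207 and 110 with saline and 76.4, 66.9, 88.1 and 53.0 with morphine. Hba-a2, an alpha globin, had 444, 412 and 211 with saline and 160, 145, 199 and 103 with morphine. The groups were apart for both, Ctrl + Saline 3 was the lowest saline mouse, and the adjusted p-values were 0.138 and 0.161. Hba-a1 and Hba-a2 are near-identical copies, as Hbb-bs and Hbb-bt nearly are, so the 4 genes are not independent.
Summed over the list, the level was 1612, 1476 and 794 CPM with saline and 592, 523, 728 and 422 with morphine. This sum is mainly that of the 4 globin genes. In Ctrl + Saline 1, Hbb-bt, Hba-a2, Hba-a1 and Hbb-bs had 238, 444, 441 and 439 normalized CPM. Of the 12 tested members 3 had a positive log2 fold change. S100a8, a neutrophil gene, was at most 2.63 normalized CPM. The amount of blood left in the tissue was not tested.

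**Figure D5:**
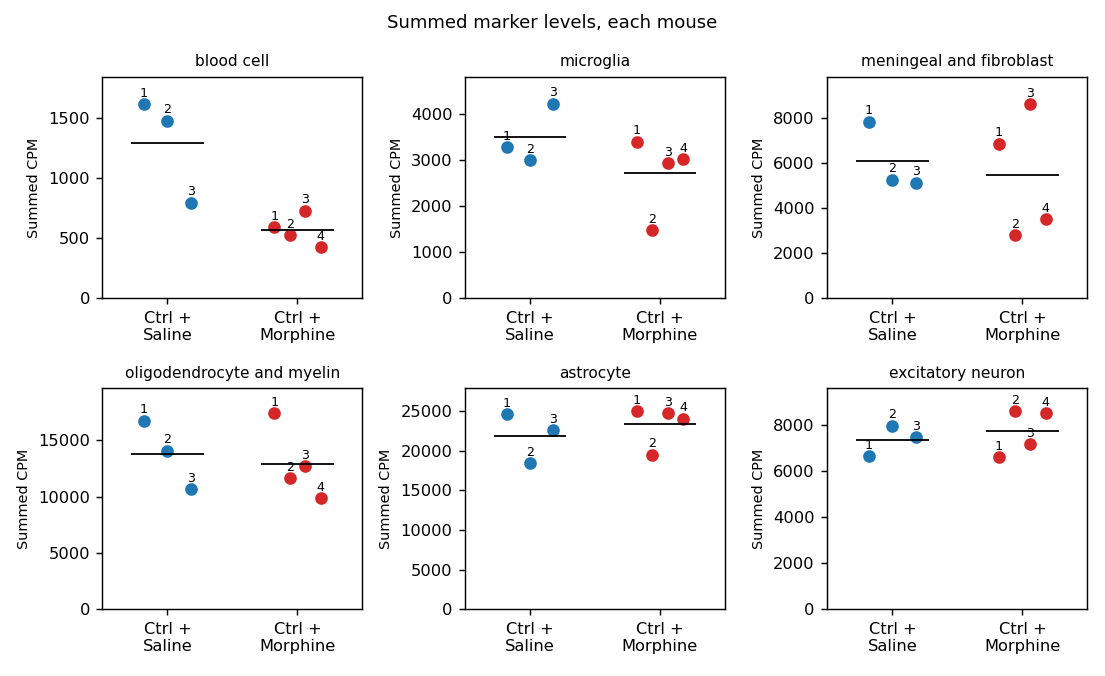
Summed CPM of 6 marker lists (vertical axes from 0) in each Ctrl mouse, with the replicate number beside each point and a line at the group mean. The blood cell sum, which is mainly that of the globin genes, separates the groups, with 794 as the lowest saline sum and 728 as the highest morphine sum. The other 5 lists overlap.

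The summed levels of excitatory neuron, interneuron, astrocyte, myelin and precursor markers overlapped between the groups. Excitatory neuron markers had 3 of 14 genes higher and none lower, with sums of 6647 to 7991 CPM with saline and 6631 to 8629 with morphine, and interneuron markers 4 of 24 higher and none lower. The interneuron counts were 1 higher with the GC correction and 4 higher and 3 lower with the replicate block. Astrocyte markers had 2 of 29 higher and 2 lower, or none and 3 with the GC correction and 3 and 5 without Ctrl + Saline 1. Aldoc, a glycolytic enzyme of astrocytes, had 8337, 9863 and 10507 normalized CPM with saline and 6485, 8242, 7366 and 6738 with morphine, apart at an adjusted p of 0.166.
Oligodendrocyte and myelin markers had 2 of 30 lower, Gjc3 and Ermn, and precursor markers 1 of 12 lower, Tmem100. Endothelial and mural markers had 1 of 28 higher, the tight junction gene Cldn5, which is among the 46 genes low in Ctrl + Saline 2 and 3, and 2 lower, Rgs5 and Abcc9, or 3 higher and 1 lower with the replicate block. None of 18 meningeal and fibroblast markers was called with all mice, but 4 were higher without Ctrl + Saline 1. Their summed level ran from 2788 in Ctrl + Morphine 2 to 8627 in Ctrl + Morphine 3, and their median was 0.15 with all mice and 0.71 without Ctrl + Saline 1. Choroid plexus and ependymal markers were low, with 7 of 16 tested 1 of them lower, and sums of 12.7 to 31.1 CPM.

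The effect of morphine under the control virus was then compared with that under the Kdm7a-shRNA virus, as an interaction in the same fit. By edgeR's quasi-likelihood test 16 entries passed, 0.085% of those tested, all known genes, with 14 higher and 2 lower interaction values. The effects under the 2 viruses share no mice, and in all 16 genes the morphine difference had opposite signs under the 2 viruses, a pattern that choosing genes by a large interaction favours. Over all tested known genes 52.2% had opposite signs. Under the Kdm7a-shRNA virus alone 1 entry passed this test, Slc25a12, with an adjusted p of 0.0394. The difference there was small for some of the 16, as for Poldip2 at -0.15 with an adjusted p of 0.813.
Tmem70 had the smallest p of the interaction. It was 64.8 to 77.7 normalized CPM in the Kdm7a-shRNA + Saline mice and 27.7, 53.7, 34.3 and 33.4 in the Kdm7a-shRNA + Morphine mice, a log2 fold change of -0.90 against 1.27 under the control virus. The interaction was 2.17 ± 0.278 (SE), with an adjusted p of 0.00705.
Ssr3, a subunit of the translocon-associated complex, had 59.2, 158 and 112 in Ctrl + Saline and 38.9 to 64.5 in Ctrl + Morphine mice, and 36.9 to 73.7 in Kdm7a-shRNA + Saline and 131 to 146 in Kdm7a-shRNA + Morphine mice. Its interaction was -2.30 with an adjusted p of 0.0230. Slc25a12, the mitochondrial aspartate and glutamate carrier, had an interaction of -2.08 and an adjusted p of 0.0230, and Creld2 of 1.77 and 0.0182.
The remaining genes, Saraf, Fez2, Pdgfa, Dusp28, Rab11a, Tspan3, Tm2d1, Poldip2, Spef1, Gde1, Sppl2b and Rtraf, had interactions between 0.93 and 2.69 and adjusted p-values between 0.0394 and 0.0496. With the GC correction 4 genes passed, Tmem70, Creld2, Ssr3 and Slc25a12, and with the replicate number as a block 6 passed. DESeq2 called 227 entries. The count rested on single mice: it was 266 without Ctrl + Saline 1, when all 16 genes still passed, and 0 without Ctrl + Saline 2 or without Ctrl + Saline 3.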

How the data were processed

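The authors sequenced mPFC cDNA of 16 mice on a Nanopore PromethION, kept reads of at least quality 7 and 500 bases that were not ribosomal RNA, and mapped them to mm10 with minimap2; Pinfish clustered the full-length reads and cDNA Cupcake merged redundant consensus sequences. The submitters' processing notes also name edgeR 3.8.6. The deposited counts are reads per gene and mouse, without normalization. The deposited CPM values are the authors' counts divided by each column's total and rescaled; they match that calculation within 4.99e-06 and were not tested. Reads carry no molecular identifiers, so depth (7081172 to 9768835 counts in the Ctrl mice) covers counting error only. Symbols that a spreadsheet had turned into dates, 26 in all, were restored from gene IDs.

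All 16 mice entered 1 fit in edgeR 4.0.16 (R 4.3.3, limma 3.58.1): filterByExpr on 4 groups, TMM factors, quasi-likelihood tests with 1 coefficient per group, and Benjamini-Hochberg adjustment over 18826 entries. Adjusted p-values are from this test unless another is named; DESeq2 1.42.0 and the exact test of edgeR were alternatives. SE was computed as the size of the log2 fold change divided by the root of F. The code was tested on simulated data. The labels do not say whether mice of a group shared a litter or a preparation day, so p-values measure the spread between these libraries. Same-numbered Ctrl mice deviated together (r = 0.146, 0.207 and 0.110 for the 3 pairs, against -0.146 to 0.133 for the other pairs, so that 1 differently numbered pair exceeded the lowest same-numbered one), a link seen in the data and not given by the labels, so a fit with the replicate number as a block was also made.

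The members, the 36 pathway and 11 marker lists and the rule for named genes were chosen with earlier results of these data known. The rule took the 15 known genes per direction with the smallest p, a fold change of at least 1.5 and a mean of at least 20 counts in the Ctrl mice, up to 4 members per list with the smallest p under 0.05, 12 genes followed by name, and 5 per direction of those passing without Ctrl + Saline 1. The GC correction, chosen after seeing the data, entered each mouse's lowess trend (span 0.3) of log2 CPM on transcript GC content as an offset. Gene positions, transcript lengths and sequences are from GENCODE vM21 on GRCm38. Some genes that the rule selected are not reported here.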

Additional observations from a re-analysis of the deposited data

Results flagged for a closer look

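For 6 genes named in the report the morphine difference under the control virus differed from that under the Kdm7a-shRNA virus by the interaction term of edgeR's quasi-likelihood test. The interaction log2 fold change was 2.17 for Tmem70, 1.77 for Creld2, 1.57 for Sppl2b, 1.32 for Pdgfa, 1.00 for Poldip2 and -2.30 for Ssr3, with adjusted p-values between 0.00705 and 0.0496. Under the control virus alone none of them passed. With the GC correction the interactions of Pdgfa, Poldip2 and Sppl2b did not pass, at adjusted p-values of 0.0628, 0.0709 and 0.0958 by the same test. When each of the 16 mice was left out in turn, Tmem70 passed in 14 fits, Creld2 in 11 and Ssr3 in 9. Pdgfa and Sppl2b passed in 4 and Poldip2 in 3.

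Within the 4 Ctrl + Morphine mice, 3 measures had 1 mouse far from the rest, by the gap to the nearest mouse over the whole range (Dixon's ratio, 95% level); chance alone gives this in about 1 of 20 groups, and 52 measures were examined. For Fkbp8 the ratio was 0.9907, with replicate 3 at 239 normalized CPM and the others at 309 to 310. For astrocyte markers it was 0.8292, with replicate 2 at 19494 summed CPM and the others at 24028 to 24962. For oligodendrocyte precursor markers it was 0.8608, with replicate 1 at 118 and the others at 87.6 to 91.8.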

How the results depend on the processing

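With all 7 Ctrl mice no entry passed under RLE or library-size scaling, either other filter, the 7 mice alone, known genes alone, adjusted p alone, the replicate block or the GC correction, with or without the block. DESeq2 passed 190 entries and edgeR's exact test 162. Leaving out each Ctrl mouse gave 0 to 230 entries, all from the fit without Ctrl + Saline 1 (166 with the GC correction); the cause was not tested.

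The count of known genes at an unadjusted p-value under 0.05, 1782, was 616 at 0.01, where fewer genes can pass, and 1136 to 2138 when a mouse was left out; without Ctrl + Saline 3 it was 1136. The share on the higher side, 75.4%, was 64.9% with known genes only, 54.5% with the GC correction and 51.9% with the correction and the replicate block.

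The interaction count, 16, was 34 with no filter, 227 by DESeq2, 4 with the GC correction and 6 with the replicate block. Leaving out each of the 16 mice gave 0 to 266. The replicate block left 0 entries past the thresholds and 1785 known genes at the unadjusted level in the Ctrl comparison; counts within gene lists moved under it by up to 3 genes.

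Among 163 named genes, 3 values changed sign: Grin2a was 0.02 without Ctrl + Saline 2 (-0.31 to 0.02 over the omissions), and Shank1 was -0.01 with the GC correction and replicate block and -0.04 with the GC correction without Ctrl + Saline 1. Precision at low levels differed by gene, and the log2 fold change of Oprm1 had an SE of 0.856.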
